A study of Homo sapiens with 6 samples.

Results

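The genes described here are 9 of the 35974 genes in the deposited table and encode intermediate filament proteins: VIM, LMNA, LMNB1, LMNB2, KRT8, KRT18, NES, NEFL and NEFH. They were picked by gene name, in a list drawn up with earlier results of the same comparison in view. Which values guided that choice is not recorded, so the difference between the groups is given for these genes as a description, with its error and without a p-value. RNA was sequenced from SU-DHL-8 cells, a human line of diffuse large B-cell lymphoma (DLBCL) with lymph node as the labelled tissue and DNMT1 wild type as the labelled genotype of every library. The inhibitor libraries (3) came from cells given GSK3685032, an inhibitor of the maintenance DNA methyltransferase DNMT1, and the DMSO libraries (3) from cells given the solvent DMSO. The dose and the time of treatment were not stated. For inhibitor replicates 2 and 3 the compound is labelled GSK3685033 and GSK3685034, names absent from the series design, and the titles were followed in treating the 3 libraries as replicates. The model is a single cell line, and since separate cultures are not mentioned for replicates, the spread between them may be technical.

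Intermediate filaments are rope-like polymers whose subunits share a central alpha-helical rod. Keratins pair a type I with a type II chain in epithelia, vimentin and desmin (type III) form filaments in mesenchymal cells, leukocytes and muscle, neurofilaments and nestin belong to neurons and progenitors, and the lamins (type V) build the meshwork under the inner nuclear membrane. B-type lamins are made by nearly all cells and stay farnesylated, while A-type lamins increase with differentiation and are scarce in many lymphoid cells. VIM is often reported as methylated at its promoter in carcinomas of the colon.

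Because DNMT1 acts on CpG sites, the bases upstream of the gene starts are shown for the 4 genes with the highest levels, from RefSeq on GRCh38.p14. Each line holds the 250 bases before the start site, 5′ to 3′ on the gene's own strand, with CpG sites in capitals.
VIM, chr10:17227991-17228240, plus strand: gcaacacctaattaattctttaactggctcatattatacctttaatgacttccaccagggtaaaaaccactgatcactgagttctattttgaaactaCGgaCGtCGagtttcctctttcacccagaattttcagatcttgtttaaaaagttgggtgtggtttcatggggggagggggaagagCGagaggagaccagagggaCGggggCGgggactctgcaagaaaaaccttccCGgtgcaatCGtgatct
LMNA, chr1:156082323-156082572, plus strand: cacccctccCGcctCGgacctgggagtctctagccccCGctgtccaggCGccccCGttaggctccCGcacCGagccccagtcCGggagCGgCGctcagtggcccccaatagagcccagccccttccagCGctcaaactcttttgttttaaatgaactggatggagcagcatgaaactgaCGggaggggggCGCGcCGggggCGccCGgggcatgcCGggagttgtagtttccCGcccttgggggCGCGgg
LMNB1, chr5:126776373-126776622, plus strand: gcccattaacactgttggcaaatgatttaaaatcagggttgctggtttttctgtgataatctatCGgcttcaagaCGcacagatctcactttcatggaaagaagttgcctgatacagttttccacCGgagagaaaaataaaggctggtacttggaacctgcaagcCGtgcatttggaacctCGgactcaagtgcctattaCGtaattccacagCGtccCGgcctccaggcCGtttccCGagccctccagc
LMNB2, chr19:2456960-2457209, minus strand: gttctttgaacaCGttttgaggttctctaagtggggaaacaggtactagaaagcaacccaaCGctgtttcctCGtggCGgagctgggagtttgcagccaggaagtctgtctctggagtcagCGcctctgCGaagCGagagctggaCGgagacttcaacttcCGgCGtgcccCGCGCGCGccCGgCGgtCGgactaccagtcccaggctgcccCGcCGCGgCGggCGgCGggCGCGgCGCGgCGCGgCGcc
In these windows VIM had 8 CpG sites, LMNA 21, LMNB1 10 and LMNB2 30, against a median of 11 (quartiles 3 and 23) over 35116 RefSeq promoter windows of the same length. NES, the only other member whose RefSeq start matched the deposited gene start, had 8. Of the 9 genes, 6 had an entry. LMNA and LMNB1 have further RefSeq starts, at 308 and 24143 bases (LMNA) and 513 bases (LMNB1) past the deposited start, and the window before the downstream LMNB1 start held 29 CpG sites. The motif GGGCGG, the box bound by SP factors, read on both strands, occurred in the printed windows of VIM, LMNA and LMNB2 (1 each) and not in that of LMNB1, while the window before the downstream LMNB1 start held 4 and 42.6% of all windows held it. The motifs TTTNGCGC (E2F type) and TGANTCA (AP-1 type), also read on both strands, were not in the letters of these 4 windows and occurred in 1.51% and 6.57% of all windows. Methylation was not measured in the files used here, and gene-level values do not tell which start was used.

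Depth was lower in every inhibitor library than in every DMSO library. Total estimated counts per library were between 53846028 and 56795603 with the inhibitor and between 57451935 and 75304441 with DMSO, or about 13461507 to 18826110 read pairs at 4 counts each. DNMT1 itself averaged 12.7 ± 0.774 FPKM with the inhibitor and 33.0 ± 0.690 FPKM with DMSO (SD, n = 3 each).

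VIM, which encodes vimentin, the main type III filament of mesenchymal cells and many leukocytes, rose most in absolute level among the 9 genes. VIM (ENSG00000026025, GRCh38 chromosome 10, 17228241 to 17237593, plus strand) had 40.8, 44.6 and 38.9 FPKM (fragments per kilobase of transcript, scaled to library depth) in the inhibitor libraries, against 1.09, 0.853 and 0.798 FPKM in the DMSO libraries. Every inhibitor library lay above every DMSO library, with no overlap. The means were 41.4 ± 2.91 and 0.914 ± 0.156 FPKM (SD, n = 3 each), a 44.8-fold difference by edgeR's fit of the counts (log2 change 5.49, SE 0.111). VIM outranked 97.9% of all genes by mean FPKM with the inhibitor and 68.3% with DMSO, and at least 4.09% of tested genes had a larger log2 change (genes at 0 counts in a group were ranked at their lower bound, so the share is a minimum). In bulk RNA, more cells with the transcript and more transcript per cell cannot be told apart.

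**Figure D1:**
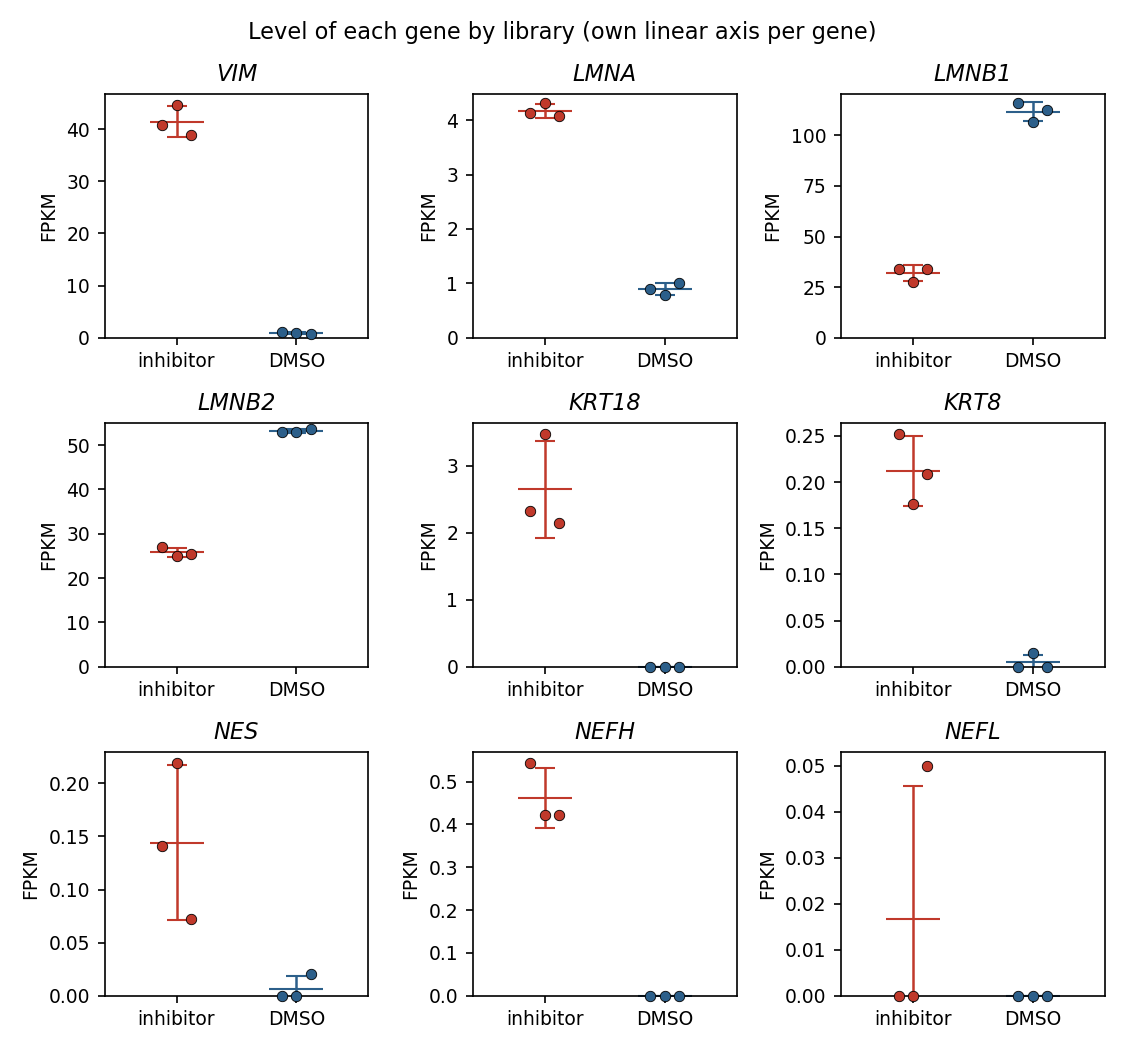
FPKM of each of the 9 genes in the inhibitor libraries (left, red) and the DMSO libraries (right, blue). Points are libraries, the long bar is the mean and the whisker the SD (n = 3 per group), and each panel has its own linear axis from 0. The groups are apart in every panel except NEFL, where 1 inhibitor library is above 0.

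VIM-AS1, an antisense gene named here after its values were seen, overlaps 1778 bases of VIM on the other strand. VIM-AS1 averaged 0.890 ± 0.0120 FPKM in inhibitor libraries and 0.357 ± 0.0590 FPKM in DMSO libraries (SD, n = 3 each; log2 change 1.31, SE 0.251, edgeR adjusted p = 0.00118). The library kit marks strand, but whether the authors' counting used it is unstated. A further gene within VIM, ENSG00000234961, averaged 0.113 ± 0.0975 FPKM with the inhibitor, was at 0 in the DMSO libraries and was not tested.

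The lamins moved in opposite directions. LMNA, whose splice forms lamin A and lamin C are the A-type lamins, rose, while LMNB1 and LMNB2, which encode the B-type lamins, fell. LMNA (ENSG00000160789, chromosome 1, 156082573 to 156140081) had 4.13, 4.32 and 4.08 FPKM in the inhibitor libraries, against 0.903, 0.778 and 1.01 FPKM in the DMSO libraries. The mean was 4.17 ± 0.124 FPKM with the inhibitor and 0.897 ± 0.117 FPKM with DMSO (SD, n = 3 each), a 4.59-fold difference (log2 change 2.2, SE 0.1). The table gives 21 LMNA transcripts 1 summed value, so lamin A and lamin C cannot be told apart.

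LMNB1 (ENSG00000113368, chromosome 5, 126776623 to 126837020) had 34.1, 27.4 and 34.1 FPKM in the inhibitor libraries, against 116, 107 and 112 FPKM in the DMSO libraries. It was 3.52-fold lower with the inhibitor (log2 change -1.81, SE 0.0852), and no inhibitor library came near the DMSO range. LMNB2 (ENSG00000176619, chromosome 19, 2427638 to 2456959) had 27.0, 25 and 25.4 FPKM in the inhibitor libraries, against 53.0, 53.0 and 53.6 FPKM in the DMSO libraries. It was 2.07-fold lower (log2 change -1.05, SE 0.0482), a smaller decrease than that of LMNB1. With the same ranking, at least 2.64% of tested genes had a lower log2 change than LMNB1 and at least 8.80% a lower one than LMNB2.

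Summed over the 3 genes, lamin transcripts came to 61.8 ± 4.53 FPKM with the inhibitor and 166 ± 4.70 FPKM with DMSO (SD, n = 3 each). LMNA made up 6.79% ± 0.718 of that sum with the inhibitor and 0.541% ± 0.0610 with DMSO. LMNB1 made up 51.4% ± 2.79 and 67.4% ± 0.878, and LMNB2 41.8% ± 2.12 and 32.1% ± 0.899, in inhibitor and DMSO libraries in turn. The ratio of LMNB1 to LMNB2 lay between 1.10 and 1.35 in inhibitor libraries and between 2.02 and 2.19 in DMSO libraries. B-type transcripts thus remained the larger part in all 6 libraries.

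**Figure D2:**
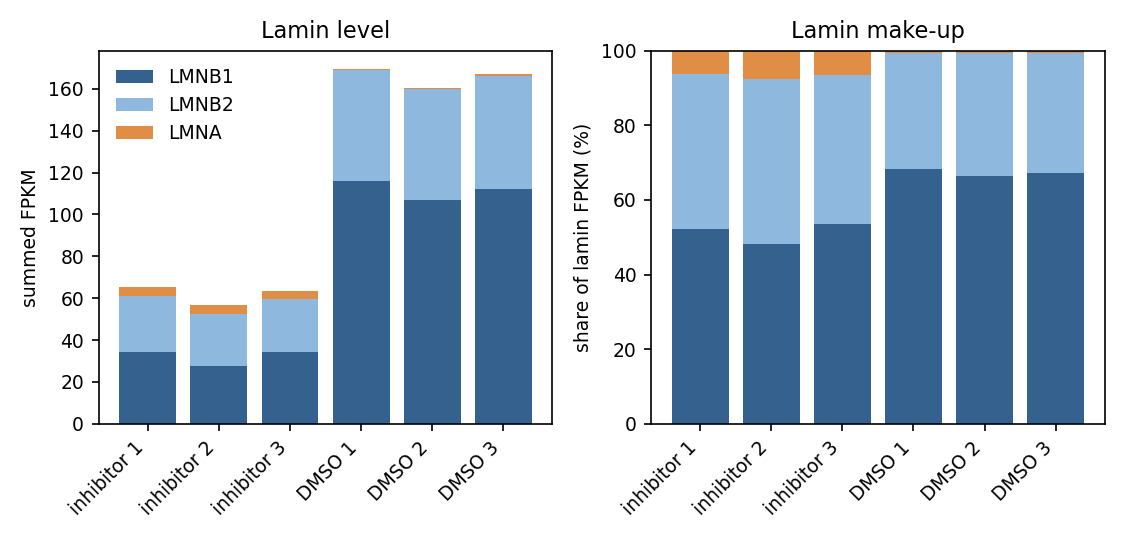
Summed lamin FPKM (left panel) and the share of each lamin in that sum (right panel, %) for the inhibitor libraries and then the DMSO libraries. LMNA is the thin orange part at the top of each bar, between 6.33% and 7.61% in the inhibitor libraries and between 0.485% and 0.606% in the DMSO libraries.

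Transcripts of proliferation genes moved with the B-type lamins. All 18 genes of a list of replication and mitosis genes were called lower with the inhibitor by edgeR, against 27.3% of all genes tested. All 18 had a mean FPKM of at least 1 in a group, and among all such genes 39.7% were lower. For CCNB1 the groups overlapped, at 13.9 ± 1.61 FPKM with the inhibitor and 16.3 ± 1.34 FPKM with DMSO (SD, n = 3 each; log2 change -0.24, edgeR adjusted p = 0.0468). The list summed to 477 to 584 FPKM in inhibitor libraries and 2109 to 2128 FPKM in DMSO libraries. PCNA, the replication clamp, averaged 155 ± 16.9 FPKM with the inhibitor and 916 ± 5.91 FPKM with DMSO (SD, n = 3 each; log2 change -2.57, edgeR adjusted p = 1.61e-08). The part of cell division in the lamin values was not tested.

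KRT8 and KRT18, the keratin pair of simple epithelia, were near or at 0 with DMSO and detected in every inhibitor library. KRT18, the type I chain (ENSG00000111057, chromosome 12, 52948871 to 52952900), had 2.32, 3.47 and 2.15 FPKM in the inhibitor libraries, against 0 FPKM in all 3 DMSO libraries. Against a floor of 12 counts over the DMSO group (3 read pairs at about 4 counts each), KRT18 was at least 145-fold higher. KRT8, the type II chain (ENSG00000170421, chromosome 12, 52897187 to 52949954), had 0.252, 0.176 and 0.209 FPKM in the inhibitor libraries, against 0, 0.0144 and 0 FPKM in the DMSO libraries. That corresponds to about 68 read pairs with the inhibitor and 2 with DMSO, a ratio of 39.7 (95% exact binomial interval 10.6 to 334, counting error only). Both DMSO pairs came from replicate 2, without which KRT8 is at 0 in the DMSO group. The groups did not overlap for either keratin, and KRT18 exceeded KRT8 per kilobase in all inhibitor libraries.

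The keratin values carry limits of annotation. The deposited KRT8 and KRT18 rows lie on opposite strands and overlap by 1084 bases, so unstranded counting could move reads between them. The table also holds 21 pseudogene copies of KRT8 and 36 of KRT18. Only 6 KRT8 copies and 4 KRT18 copies passed the filter on low counts. Among those tested, edgeR called 4 KRT8 copies and 2 KRT18 copies lower and 0 higher, and the other copies were not tested. The KRT8 copies summed to 8.84 FPKM with the inhibitor and 11.5 FPKM with DMSO (sums of group means), far above KRT8 itself, while the KRT18 copies summed to 1.31 and 2.13 FPKM. KRT8P12 led them with 4.48 ± 0.373 FPKM in inhibitor libraries and 5.52 ± 0.322 FPKM in DMSO libraries (SD, n = 3 each; log2 change -0.31, edgeR adjusted p = 0.0390). KRT8P33 averaged 2.1 ± 0.410 and 2.51 ± 0.300 FPKM and was not called (edgeR adjusted p = 0.295). KRT8P46 (1.0 ± 0.215 and 1.57 ± 0.207 FPKM, edgeR adjusted p = 0.0436) and KRT8P39 (0.536 ± 0.106 and 1.23 ± 0.0552 FPKM, edgeR adjusted p = 0.00296) fell, with the inhibitor value first in each pair. Reads of KRT8 and KRT18 that match a copy may be split among these rows.

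The filament genes of neurons and progenitors stayed low in both groups. NEFH, the heavy neurofilament chain (ENSG00000100285, chromosome 22, 29480218 to 29491390), had 0.543, 0.423 and 0.421 FPKM in the inhibitor libraries, against 0 FPKM in all 3 DMSO libraries, at least 31.2-fold higher against the same floor. NES, which encodes nestin of neural and other progenitors (ENSG00000132688, chromosome 1, 156668763 to 156677407), had 0.141, 0.219 and 0.0726 FPKM in the inhibitor libraries, against 0, 0 and 0.0199 FPKM in the DMSO libraries. About 37 read pairs with the inhibitor stood against 2 with DMSO, a ratio of 21.6 (95% exact binomial interval 5.57 to 185, counting error only). Both DMSO pairs came from replicate 3, without which NES is at 0 in the DMSO group. Relative to its mean, NES varied most among the tested members within the inhibitor group, with an SD of 0.0732 around a mean of 0.144 FPKM. NEFL, the light neurofilament chain (ENSG00000277586, chromosome 8, 24950955 to 24956721), was at 0 in every library except inhibitor replicate 3, which had 0.05 FPKM from 13 counts. That is about the floor, so no fold is given and a difference was not detectable at this depth.

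Of the 9 genes, 8 passed the filter on low counts, and NEFL did not. Among the 8, edgeR's quasi-likelihood test called 6 higher (VIM, LMNA, KRT8, KRT18, NES and NEFH) and 2 lower (LMNB1 and LMNB2) at a Benjamini-Hochberg adjusted p of 0.05. Across all 20783 genes tested it called 38.1% higher and 27.3% lower, 65.4% in all. In 71.7% of all genes tested the FPKM groups did not overlap, with the inhibitor above in 41.7% and below in 30.0%. The genes were chosen with this comparison known, so nothing is read from their count, and KRT8, KRT18, NES and NEFH could pass the filter only through their inhibitor counts. With inhibitor replicate 1 as the only inhibitor library, where the spread comes from DMSO alone and the lone library is assumed to vary like it, NES was not called, and its log2 change was 4.35, against 4.36 with all libraries. Inhibitor replicate 2 lay furthest from the DMSO mean for 6 of the 8 genes, and inhibitor replicate 1 for the other 2 (KRT8 and NEFH).

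**Figure D3:**
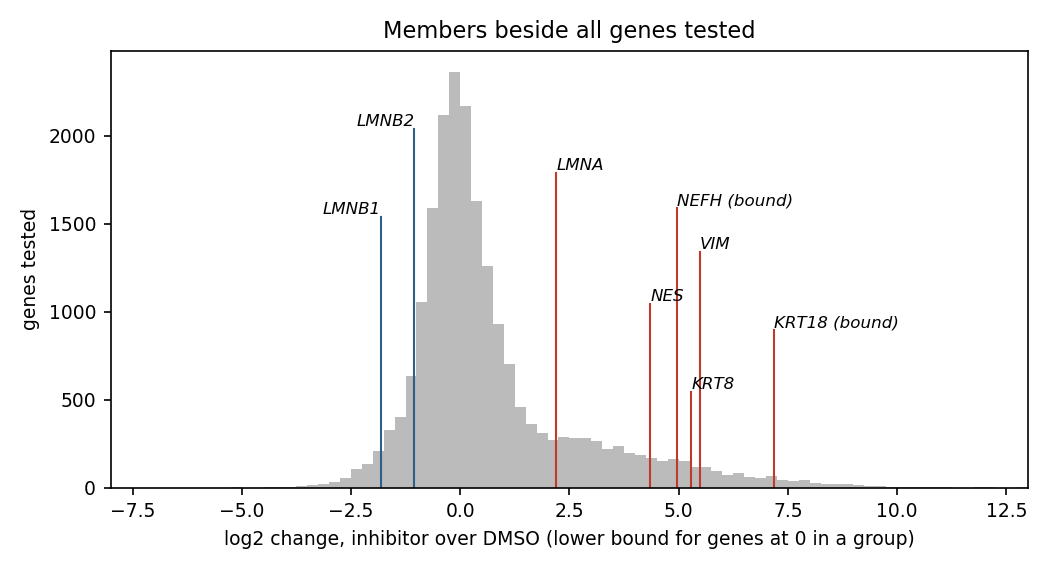
Histogram of the log2 change, inhibitor over DMSO, for all 20783 genes tested, with lines at the 8 tested members (red higher, blue lower; line heights carry no value). Genes at 0 counts in a group stand at their lower bound. LMNB1 and LMNB2 lie in the lower flank at -1.81 and -1.05, and the other 6 lie to the right, from LMNA at 2.2.

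The order of levels differed between the groups. With the inhibitor, mean FPKM fell in the order VIM, LMNB1, LMNB2, LMNA, KRT18, NEFH, KRT8, NES and NEFL, and each gene exceeded the next in all 3 libraries except KRT8 against NES, whose libraries overlapped. With DMSO the order was LMNB1, LMNB2, VIM and LMNA, then NES and KRT8, with KRT18, NEFL and NEFH at 0. VIM and LMNA overlapped there, as did NES, KRT8 and the genes at 0. VIM made up 38.8% ± 2.97 of the summed FPKM of the 9 genes with the inhibitor and 0.547% ± 0.0832 with DMSO (SD, n = 3 each).

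Most of the remaining filament family stayed at low levels, and its largest changes ran in both directions. Of 10 other non-keratin filament genes, 8 were tested. Of these 8, 6 were higher and 2 lower, against 38.1% higher and 27.3% lower among all genes tested. Their median log2 change, counting genes at 0 by their bound, was 3.16, against 0.14 over all genes tested. In 5 of the 6 higher genes every DMSO library had 0 counts, so their direction was fixed by the filter. The other, SYNM, had 8, 28 and 6 counts in the DMSO libraries and also needed inhibitor counts to pass. SYNM, which encodes synemin, a partner of vimentin and desmin, had 1.10, 0.898 and 1.11 FPKM in the inhibitor libraries, against 0.0166, 0.0436 and 0.0107 FPKM in the DMSO libraries (log2 change 5.36, SE 0.414, edgeR adjusted p = 2.67e-06). BFSP2, which encodes phakinin of the lens beaded filament, went the other way, with 0.141, 0.210 and 0.478 FPKM in the inhibitor libraries, against 2.55, 2.39 and 2.38 FPKM in the DMSO libraries (log2 change -3.11, SE 0.370, edgeR adjusted p = 5.02e-05). IFFO1, a filament family orphan and the most abundant of the list, was slightly lower, at 7.86 ± 0.148 FPKM with the inhibitor and 9.78 ± 0.111 FPKM with DMSO (SD, n = 3 each; log2 change -0.32, edgeR adjusted p = 2.77e-04).

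The other named genes of this list were at 0 in all 3 DMSO libraries. INA, the neuronal filament internexin, had 0.451, 0.531 and 0.461 FPKM in the inhibitor libraries and was at least 27.8-fold higher (edgeR adjusted p = 7.76e-06). DES, the muscle filament desmin, reached 0.217 ± 0.0464 FPKM and was at least 9.73-fold higher (edgeR adjusted p = 1.50e-04). NEFM, the medium neurofilament chain, reached 0.140 ± 0.0459 FPKM and was at least 9.15-fold higher (edgeR adjusted p = 2.02e-04). PRPH, peripherin of peripheral neurons, reached 0.123 ± 0.0202 FPKM and was at least 7.20-fold higher (edgeR adjusted p = 2.66e-04). With counts divided by 4, which requires more reads, the number of non-keratin and keratin genes called higher was 2 in place of 7.

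Of 53 other keratin genes listed, 15 were in the table and 2 were tested. KRT10, a type I keratin of epidermis, had 4.86, 4.96 and 5.10 FPKM in the inhibitor libraries, against 6.70, 6.40 and 7.03 FPKM in the DMSO libraries (log2 change -0.44, SE 0.0965, edgeR adjusted p = 0.00278). KRT80 averaged 0.170 ± 0.0472 FPKM with the inhibitor and 0.00492 ± 0.00852 FPKM with DMSO (SD, n = 3 each; edgeR adjusted p = 7.46e-04). Its 4 DMSO counts in all were too few for testing without the 32, 58 and 47 counts of the inhibitor libraries. A lower call was thus not possible for KRT80, and nothing is read from its direction. The other 13 did not pass the filter.

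**Figure D4:**
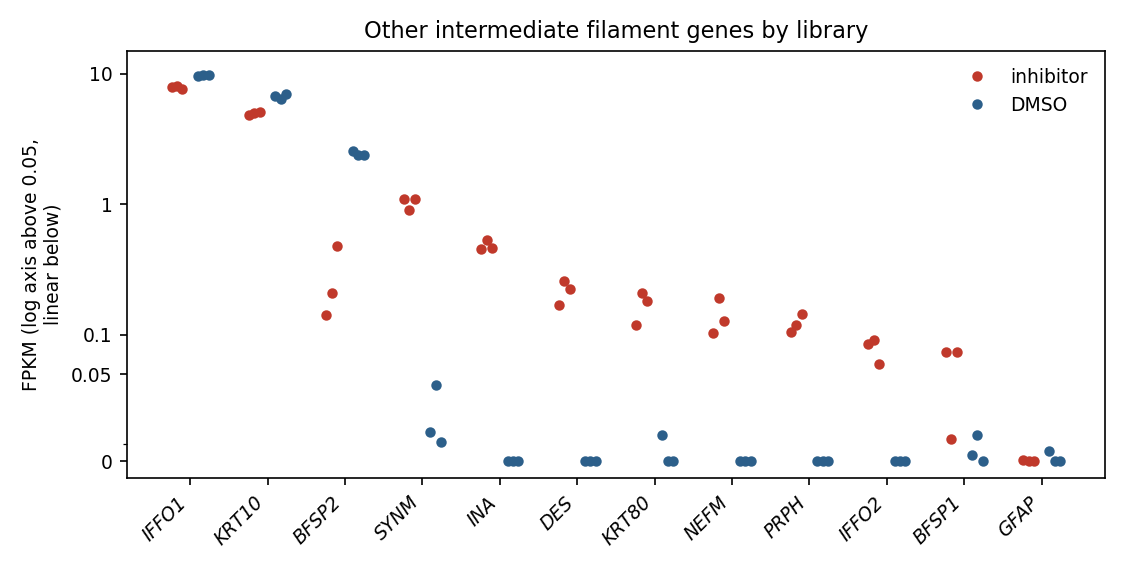
FPKM by library of the other non-keratin filament genes and of KRT10 and KRT80, inhibitor libraries (red) left of DMSO libraries (blue). The axis is logarithmic above 0.05 FPKM and linear below. Most genes on the right are at 0 with DMSO and under 1 FPKM with the inhibitor, while IFFO1, KRT10 and BFSP2 are lower with the inhibitor.

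Transcripts of proteins that bind the lamins at the inner nuclear membrane changed in both directions, with a balance that depended on the scaling. All 19 listed partners were tested, and 10 were lower and 4 higher with TMM, while 7 were lower and 7 higher under upper-quartile scaling, which moved the median log2 change of all genes to 0.31. Among all genes tested 27.3% were lower and 38.1% higher. Of the partners, 17 had a mean FPKM of at least 1 in a group, and among all such genes 39.7% were lower and 34.1% higher. The list's median log2 change was -0.19, against 0.14 for all genes. LBR, the lamin B receptor that tethers heterochromatin, had 30.4, 28.9 and 30.1 FPKM in the inhibitor libraries, against 63.1, 62.7 and 63.1 FPKM in the DMSO libraries (log2 change -1.09, SE 0.0417, edgeR adjusted p = 4.39e-08). TMPO, the source of the LAP2 proteins, had 22, 18.9 and 22.8 FPKM in the inhibitor libraries, against 48.1, 45.1 and 47.1 FPKM in the DMSO libraries (log2 change -1.14, SE 0.0695, edgeR adjusted p = 5.87e-07). For both genes, as for the B-type lamins, the groups stood apart in every library.

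SYNE2, which encodes nesprin of the LINC complex that links nucleus and cytoskeleton, fell most on the log2 scale in the list, with 1.22 ± 0.0929 FPKM in inhibitor libraries and 4.17 ± 0.193 FPKM in DMSO libraries (SD, n = 3 each; log2 change -1.77, edgeR adjusted p = 3.70e-08). NRM, the membrane protein nurim, averaged 5.18 ± 0.485 and 14.3 ± 0.823 FPKM (log2 change -1.47, edgeR adjusted p = 9.84e-07) in inhibitor and DMSO libraries. TMEM201, an inner nuclear membrane protein, averaged 4.62 ± 0.478 and 12.3 ± 0.370 FPKM in the same order (log2 change -1.42, edgeR adjusted p = 3.72e-07). LEMD3, an inner membrane protein that binds SMAD factors, averaged 8.32 ± 0.601 FPKM with the inhibitor and 15.9 ± 0.470 FPKM with DMSO (edgeR adjusted p = 1.16e-06). BANF1, the chromatin bridge to LEM-domain proteins and the most abundant of the list, averaged 44.3 ± 0.759 FPKM with the inhibitor and 67.0 ± 1.29 FPKM with DMSO (log2 change -0.60, edgeR adjusted p = 2.00e-06).

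The 4 partners that rose were TMEM43, SUN2, SYNE1 and TOR1AIP1, named here after their values were seen. TMEM43, a partner of emerin, averaged 22.5 ± 1.12 FPKM with the inhibitor and 13 ± 0.280 FPKM with DMSO (SD, n = 3 each; log2 change 0.79, edgeR adjusted p = 1.20e-06). SUN2, an inner membrane anchor of the LINC complex, averaged 16.1 ± 0.627 FPKM with the inhibitor and 11.2 ± 0.290 FPKM with DMSO (log2 change 0.52, edgeR adjusted p = 1.20e-05), while its paralog SUN1 averaged 12.1 ± 0.531 and 13.8 ± 0.427 FPKM (log2 change -0.19, edgeR adjusted p = 0.00832). With inhibitor replicate 1 alone, 2 partners were called higher and 8 lower.

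Of 6 enzymes that mature or cleave the lamins, 4 were lower and 0 higher, against 27.3% lower and 38.1% higher among all genes tested. Their median log2 change was -0.59. CASP6, a caspase that cleaves lamin A in apoptosis and the only one of the list outside maturation, was not called, at 4.03 ± 0.609 FPKM with the inhibitor and 3.35 ± 0.370 FPKM with DMSO (SD, n = 3 each; edgeR adjusted p = 0.188). ICMT, which methylates the farnesylated C-terminal cysteine, had 10.6, 9.63 and 10.1 FPKM in the inhibitor libraries, against 26.8, 30.6 and 27.5 FPKM in the DMSO libraries (log2 change -1.49, SE 0.0656, edgeR adjusted p = 8.90e-08). FNTA and FNTB, the subunits of farnesyltransferase, were lower by edgeR (log2 change -0.64 for FNTA, adjusted p = 3.58e-06, and -0.69 for FNTB, adjusted p = 0.00322). RCE1, the protease that trims the CaaX end, averaged 4.68 ± 0.177 FPKM with the inhibitor and 6.84 ± 0.0851 FPKM with DMSO (edgeR adjusted p = 1.67e-04). ZMPSTE24, the protease that cuts prelamin A, was the most abundant and was not called, at 21.7 ± 0.532 FPKM with the inhibitor and 20.5 ± 0.929 FPKM with DMSO (SD, n = 3 each; edgeR adjusted p = 0.219).

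**Figure D5:**
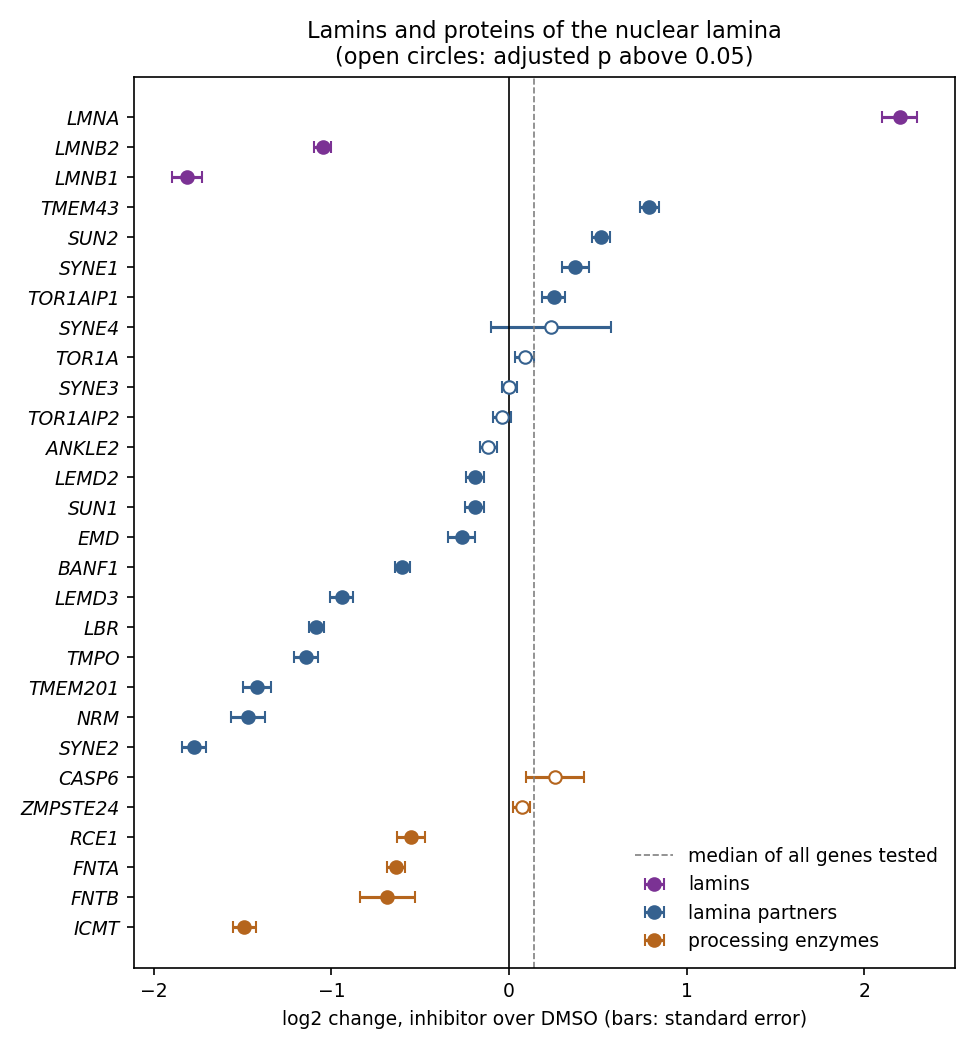
Log2 change, inhibitor over DMSO, of the 3 lamins (purple), 19 lamina partners (blue) and 6 processing enzymes (brown), with standard errors. Filled circles have an edgeR adjusted p of 0.05 or less, and the dashed line marks the median of all genes tested (0.14). LMNA stands furthest right at 2.2, and LMNB1 (-1.81) and SYNE2 (-1.77) furthest left.

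Plakins, which tie filaments to junctions and to other cytoskeletal fibres, were at low levels in both groups. Of 7 tested, 5 were higher and 1 lower, against 38.1% higher and 27.3% lower among all genes tested. EVPL and DSP had 0 counts in all DMSO libraries and EPPK1 had 12, so these 3 could pass the filter only through their inhibitor counts and their direction was fixed by it. EVPL, envoplakin of stratified epithelia, reached 0.296 ± 0.112 FPKM and was at least 39.2-fold higher (edgeR adjusted p = 1.43e-05). PPL, its partner periplakin, averaged 0.464 ± 0.203 FPKM with the inhibitor and 0.0384 ± 0.0304 FPKM with DMSO (SD, n = 3 each; log2 change 3.53, edgeR adjusted p = 2.2e-04). DSP, desmoplakin of desmosomes, and EPPK1, epiplakin, were called higher but stayed under 0.1 FPKM on average. MACF1, a large cross-linker of actin and microtubules, was slightly higher (log2 change 0.30, edgeR adjusted p = 0.00144), and DST, which encodes dystonin, slightly lower (log2 change -0.32, edgeR adjusted p = 0.00132). PLEC, plectin, the most abundant linker, was not called, at 3.03 ± 0.316 and 2.71 ± 0.139 FPKM in inhibitor and DMSO libraries (edgeR adjusted p = 0.109).

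Markers of other cell types are given beside these filament values. All 6 listed B-cell markers had a mean FPKM of at least 1 in both groups, and they summed to 797 to 863 FPKM in inhibitor libraries and 862 to 879 FPKM in DMSO libraries. Within the list 3 genes were higher and 3 lower, against 38.1% higher and 27.3% lower among all genes tested. MS4A1 (CD20) averaged 3.63 ± 0.779 FPKM with the inhibitor and 14 ± 0.890 FPKM with DMSO (SD, n = 3 each; log2 change -1.95, edgeR adjusted p = 8.88e-07). CD79A and CD79B, the signalling chains of the B-cell receptor, had the highest levels.

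Neural markers (4 of 5 in the table, 4 higher) summed to 4.0 to 4.58 FPKM in inhibitor libraries and 0.102 to 0.156 FPKM in DMSO libraries, mostly from TUBB3, a neuronal tubulin (3.85 ± 0.351 and 0.105 ± 0.0211 FPKM, edgeR adjusted p = 2.05e-08). MAP2, a microtubule protein of dendrites, averaged 0.274 ± 0.0393 and 0.0191 ± 0.00781 FPKM, and SOX2 and SNAP25 were at 0 with DMSO. SOX2 and SNAP25, like EPCAM, PDGFRB and COL1A2 below, could pass the filter only through their inhibitor counts, so their direction was fixed by it. Among all genes tested 38.1% were higher. Epithelial markers (4 of 5 in the table, 2 higher) summed to 0.921 to 1.27 FPKM with the inhibitor and 0.214 to 0.399 FPKM with DMSO. EPCAM was at 0.441 ± 0.0573 FPKM with the inhibitor and 0 with DMSO, ESRP1 was higher as well, and CDH1 was listed at 0 in every DMSO library and averaged 0.00120 FPKM with the inhibitor. Fibroblast markers (5 of 5 in the table, 2 higher) summed to 0.538 to 0.669 FPKM with the inhibitor and 0.0988 to 0.132 FPKM with DMSO. Of them COL1A2 and PDGFRB were higher, COL1A1 was not called, and DCN, COL3A1 and PDGFRB were at 0 with DMSO. T-cell (2 in the table, 0 tested), myeloid (5, 0 called), muscle (2, 0 called) and endothelial (2, 0 tested) markers each summed to at most 1.41 FPKM in any library. VIM alone exceeded each of these summed levels in every inhibitor library. Levels of different genes do not give a share of cells, so nothing is read from that. The part of other cell types in the filament values was not tested.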

How the data were processed

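Poly(A) RNA was sequenced as dUTP-marked paired-end libraries, per the labels' protocols. The submitters' processing notes list edgeR, DESeq2, StringTie 2.1.6, HISAT2 2.2.1 and cutadapt 1.9 and the build mm10. The gene IDs are human, and 99.89% of the 34105 found in GENCODE release 29 overlap their GRCh38 position, so coordinates were read as GRCh38. Per gene and library, the deposited values are an estimated count and FPKM, per the file headers, without a definition. Genes with a count of 4 were more frequent (1319.8 per library) than with 3 (725.8) or 5 (474.5), so about 4 counts were taken as 1 read pair.

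Libraries were grouped by title. Counts, already whole, were tested with edgeR 4.0.16 (R 4.3.3; filterByExpr, TMM, two-sided quasi-likelihood test, Benjamini-Hochberg over 20783 genes, called at 0.05), after a check on simulated data. SE is the size of the log2 change divided by the square root of F. The spread behind each p-value is that between libraries, which may be technical. No libraries of a group were identical, and pairs differed by 3.30 to 6.84 times the sampling variance. Intervals and floors cover counting error only.

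Members and gene lists were chosen with earlier results of these data known. Named beside the members were, in each list, the called genes with the largest change in log2(FPKM + 0.5) and no overlap (up to 6, 3 for cell cycle lists, 2 for markers) and those with the highest level, then copies of members and overlapping genes at a mean FPKM of 1, and nearest profiles. A few genes that this rule selects are left out of the text. The 17 alternatives covered limma 3.58.1 on log2(FPKM + 0.5), DESeq2 1.42.0, scalings, filters, a replicate block and left-out libraries. Promoter windows come from RefSeq (GRCh38.p14).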

Additional observations from a re-analysis of the deposited data

How the results depend on the processing

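Under 17 alternatives, none of the 8 tested members changed direction wherever it was tested. KRT8, KRT18, NES and NEFH were at or near 0 counts with DMSO and could pass a filter only through their inhibitor counts. Nothing is therefore read from their constant direction or from their part in the counts of members called. VIM, LMNA, LMNB1 and LMNB2 passed the threshold under each alternative with more than 1 inhibitor library. With inhibitor replicate 1 alone their log2 changes were 5.49, 2.21, -1.69 and -0.96 in turn. These genes were chosen with the comparison known and the fits share libraries, so the repeated calls are no separate support. Log2 changes ranged from 4.47 to 5.66 for VIM, 1.45 to 2.37 for LMNA, -1.88 to -1.64 for LMNB1 and -1.10 to -0.88 for LMNB2, with the pseudocount of limma giving the smaller values of VIM and LMNA. The fitted size for KRT18 (1.85 to 12.23) and NEFH (0.55 to 10.17) was lowest with limma on log2(FPKM + 1). For KRT8 (main 5.29) it was 0.27 on that scale and 9.57 without DMSO replicate 2, and for NES (main 4.36) it was 3.74 without DMSO replicate 2 and 8.71 without DMSO replicate 3. The 9.57 and 8.71 are against a DMSO group at 0 and depend on the prior count. NES was not called with inhibitor replicate 1 alone (log2 change 4.35), a fit whose spread comes from DMSO. When testing was limited to genes reaching an FPKM of 1 in 3 libraries, 3 members were called higher in place of 6 and 0 other filament and keratin genes in place of 7, since the low genes were not tested. With counts divided by 4, 2 other filament and keratin genes were called higher. Upper-quartile scaling gave 7 lamina partners higher and 7 lower in place of 4 and 10, so that the excess of lower calls was lost, and raised the share of higher calls over all genes to 68.2%, against 58.3% with TMM, and inhibitor replicate 1 alone gave 2 partners higher and 8 lower. The FPKM filter gave 5 partners higher and 7 lower of 17 tested. Leaving out each library in turn gave 6 members higher and 2 lower each time, 4 lamina partners higher and 10 to 11 lower, and 7 to 9 other filament and keratin genes higher and 3 lower. Same-numbered inhibitor and DMSO libraries did not deviate together (correlations 0.053, 0.040 and -0.058), so the numbers do not pair them, and the replicate block gave 6 members higher and 2 lower. With 3 libraries per group and few reads, NEFL and the filament genes under 0.1 FPKM cannot be resolved.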

Other observations

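Of 10 genes of cell cycle arrest and senescence, 6 were higher and 3 lower with the inhibitor. CXCL8, a chemokine, averaged 3.15 ± 0.331 FPKM with the inhibitor and 0.0720 ± 0.0540 FPKM with DMSO (SD, n = 3 each; log2 change 5.32, edgeR adjusted p = 3.06e-06). CDKN1A, the p21 inhibitor of cyclin-dependent kinases, averaged 27.1 ± 1.28 FPKM with the inhibitor and 12.2 ± 0.762 FPKM with DMSO (log2 change 1.15, edgeR adjusted p = 2.89e-07). CDKN1C, a related inhibitor, reached 2.21 ± 0.269 FPKM, at least 98.2-fold higher. HMGB2, a chromatin protein of dividing cells, averaged 88.9 ± 14 FPKM with the inhibitor and 286 ± 29 FPKM with DMSO (log2 change -1.69, edgeR adjusted p = 1.36e-06), and CDKN2A 23.0 ± 1.89 and 25.9 ± 0.892 FPKM (log2 change -0.17, edgeR adjusted p = 0.0401).

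The genes whose profile over the 6 libraries was nearest to each member were found among 12777 tested genes with a mean FPKM of at least 1 in a group, by the root mean square difference of centred log2(FPKM + 0.5). LMNB1 was nearest to the spindle genes TPX2 (0.0301) and NUSAP1 (0.0337), and LMNB2 to the proteasome subunit PSMA6 (0.00937) and the phosphatase PTPN1 (0.0212). VIM was nearest to the tetraspanin CD9 (0.0859) and the cold shock protein YBX3 (0.105). CD9 averaged 50.0 ± 3.91 FPKM with the inhibitor and 1.41 ± 0.203 FPKM with DMSO (SD, n = 3 each). LMNA was nearest to ZFP3 (0.0454) and MFSD10 (0.0509), and KRT18 to CITED4 (0.0284) and ENSG00000285822 (0.0635). With 6 libraries in a pair of groups, these distances rest mostly on the size of the difference between groups.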
